A study of Mus musculus with 14 samples.

Results

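B cell lineage and MHC class II transcripts were measured in libraries made from regulatory T cells (Tregs), T cells that restrain immune responses and make no antibody. The set was a list of 36 genes matched by NCBI Gene number, and all 36 were present among the 27179 genes of the count table. By role, 12 encode receptors and other surface proteins, 9 signalling proteins, 6 transcription regulators, 3 antibody proteins and 6 the MHC class II pathway. They were followed over 14 libraries of FoxP3-YFP sorted cells from tumor-bearing mice at endpoint. The flank tumors were grown from MC38, a colon carcinoma line of mice. Tumor-infiltrating Tregs, labelled TIL, gave 3 libraries of strain B6.IL23RFlox FoxP3Cre-YFP (TIL Flox) and 4 of strain B6.IL23RWT FoxP3Cre-YFP (TIL WT). Spleen Tregs of the same strains gave 3 Spleen Flox and 4 Spleen WT libraries. All groups, WT included, thus carried the FoxP3Cre-YFP allele and a tumor, and Cre is made where Foxp3 is active. The labels used here give no age or sex. Nor do they tie each replicate to its own mouse, and p-values therefore reflect library-to-library spread that may be technical.

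B cells detect antigen through a receptor whose CD79 chains pass the signal to the kinases LYN, BLK, SYK and BTK, the adaptor BLNK and the phospholipase PLCG2. The factors EBF1 and PAX5 set and hold B cell identity. MHC class II molecules present peptides to CD4 T cells and are made mainly by B cells, dendritic cells and macrophages under the control of CIITA, while mouse T cells make little of them.

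The libraries held 4859099 to 10333892 counts. Levels below are in CPM, a gene's count relative to its library total, with totals scaled by the trimmed mean of M-values (TMM). Il23r, the targeted gene, was near absent, with 17 counts over the TIL Flox libraries and 2 over the TIL WT libraries, and 10 over the Spleen Flox and 2 over the Spleen WT libraries. These counts were higher in Flox, with 9 of the 10 Spleen Flox counts in Spleen Flox 3. They cover the whole gene and cannot show whether part of it was deleted. Flox and WT below therefore mean the libraries labelled so. Foxp3, which defines Tregs, stood at 98.3 to 231 CPM in tumor and 103 to 268 CPM in spleen libraries. Genotype and sex-linked reads could not be told apart. Flox libraries had 0.502 to 3.34 CPM of the X-inactivation RNA Xist and 281 to 656 CPM of the Y-linked gene Ddx3y, against 56.7 to 530 CPM of Xist and 0 to 127 CPM of Ddx3y in WT libraries. Replicate 2 of WT carried both, with 56.7 CPM of Xist and 127 CPM of Ddx3y in TIL WT 2 and 72.4 and 29.2 CPM in Spleen WT 2.

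Most of the B cell genes were carried mainly by the spleen libraries, and the class II genes by the libraries of both tissues. Summed over the 36 genes, the level was 381, 237 and 497 CPM in TIL Flox, 1295, 274, 564 and 221 CPM in TIL WT, 664, 654 and 791 CPM in Spleen Flox and 1194, 3007, 1223 and 811 CPM in Spleen WT libraries. The tissues overlapped in this sum through TIL WT 1, where the kinase gene Lyn alone gave 897 CPM. Each spleen library had counts for 34 to 36 of the genes, and each tumor library for 16 to 28. Transcription regulators made up a median of 0.521% of the sum in tumor and 49.4% in spleen libraries, and class II genes 36.7% in tumor and 8.72% in spleen libraries. In such bulk samples, fewer cells of a type and less RNA per cell cannot be told apart.

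**Figure D1:**
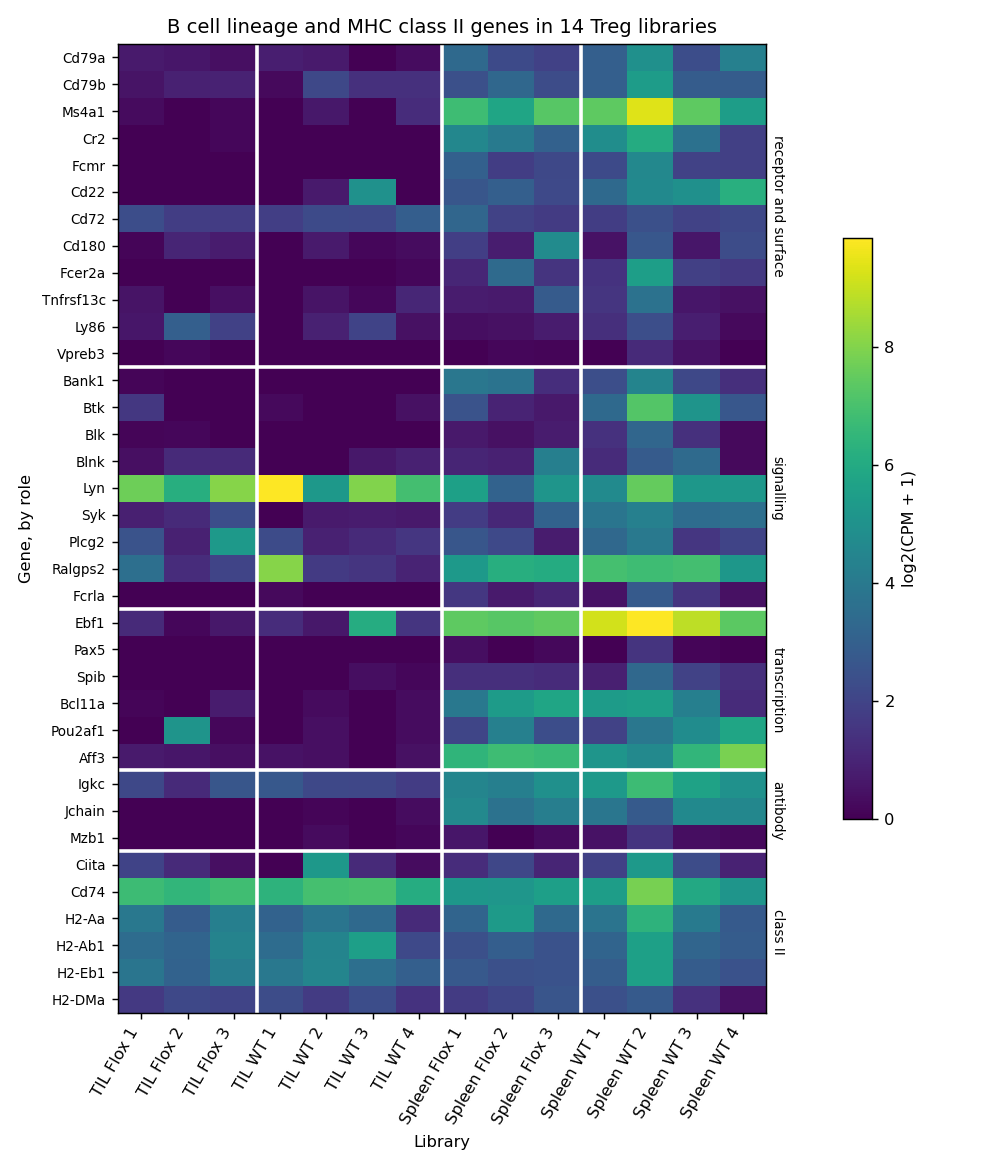
Level of each of the 36 genes (rows, by role) in each of the 14 libraries (columns), as log2(CPM + 1) by colour, with white lines between groups and roles. Ms4a1, Ebf1, Aff3 and Jchain are seen over the spleen columns and are near 0 in most tumor columns, Lyn and Cd74 run through both tissues, and Spleen WT 2 is the brightest spleen column for 27 genes.

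In tumor against spleen, with the genotypes weighted equally, 33 of the 36 genes passed the low-count filter, and 21 fell and 1 rose (edgeR's quasi-likelihood test, Benjamini-Hochberg adjusted p under 0.05 over 12008 genes). Over all genes tested, 11.2% fell and 13.0% rose. The median log2 fold change, tumor over spleen, was -3.41 over the 33 genes and 0.02 over all genes. By role, 9 of 11 receptor and surface genes, 6 of 9 signalling genes, 4 of 5 transcription regulators, both antibody genes tested and 0 of 6 class II genes fell. For 15 of the 36 genes every tumor library lay below every spleen library, against 3.48% of all genes. A gene that passed the filter only through its spleen libraries had to differ, so these counts describe the genes. The 3 genes not tested were Vpreb3, Pax5 and Mzb1. Of the 22 calls, 16 held when any 1 of the 14 libraries was left out, and Blk held in the 11 such fits that tested it.

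**Figure D2:**
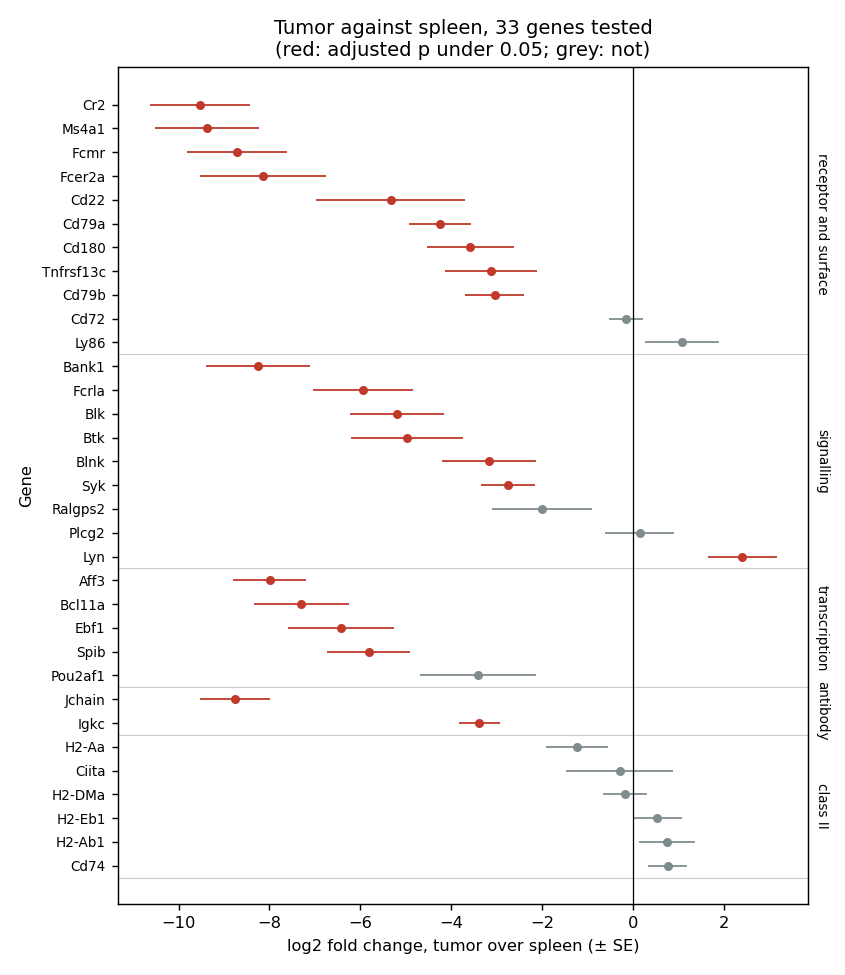
Log2 fold change, tumor over spleen, with its standard error for the 33 genes tested, by role, red where the adjusted p is under 0.05. The 21 red points left of 0 lie in the receptor, signalling, transcription and antibody roles, Lyn is the 1 red point on the right, and the class II genes lie between -1.23 and 0.77. Fcmr had no tumor count, so its fitted position depends on the prior count added.

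Of the 11 receptor and surface genes tested, 9 fell in tumor, and Cd72 and Ly86 did not pass. Ms4a1, which encodes the B cell surface protein CD20, had 0.209, 0 and 0.113 CPM in TIL Flox, 0, 0.538, 0 and 1.35 CPM in TIL WT, 110, 54.7 and 154 CPM in Spleen Flox and 166, 667, 170 and 43.2 CPM in Spleen WT libraries. The tissues did not overlap, and Spleen WT 2 was the highest library. Ms4a1 fell by 9.37 ± 1.15 in tumor on the log2 scale (SE, edgeR adjusted p = 1.73e-04), and the value was -9.97 without TIL WT 4. The antigen receptor's signalling chains Cd79a and Cd79b fell by 4.24 ± 0.68 (edgeR adjusted p = 0.00103) and by 3.05 ± 0.64 (edgeR adjusted p = 0.00504). Cd79b did not vanish, with counts in all 7 tumor libraries, at most 3.34 CPM against at least 3.85 CPM in spleen, and its log2 fold change was -2.42 without Spleen WT 2.

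The complement receptor gene Cr2 had 1 count over the tumor libraries and 1671 over the spleen libraries, a tumor over spleen ratio of 0.000727 after scaling to depth (exact 95% interval 1.84e-05 to 0.00406, for counting error only). Fcer2a, the low-affinity IgE receptor, likewise had 1 tumor count against 738 spleen counts, a ratio of 0.00165 (4.16e-05 to 0.0092). Fcmr, a receptor for IgM, had 0 tumor counts against 504 spleen counts, so it was at least 138-fold lower in tumor, taking a floor of 3 counts over the group. Spleen WT 2 held 50.2% of the spleen counts of Cr2, 77.8% of those of Fcer2a and 58.5% of those of Fcmr. Without that library, an alternative chosen after seeing the data, the ratio was 0.00119 for Cr2 and 0.00601 for Fcer2a, and Fcmr was at least 70.7-fold lower in tumor. Intervals and floors treat counts as independent molecules. These 3 genes were among the 9 of this role that fell.

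Other surface genes were less clear-cut. Cd180, a Toll-like receptor relative, had 0 to 1.02 CPM in tumor and 0.41 to 26.1 CPM in spleen, with its highest value in Spleen Flox 3, and its call was lost without that library (log2 fold change -2.32 in place of -3.57, edgeR adjusted p = 0.0706). Its partner Ly86 ran the other way without passing, at 0 to 6.89 CPM in tumor and 0.188 to 4.21 CPM in spleen libraries. Tnfrsf13c, the receptor for the survival factor BAFF, had 0 to 1.1 CPM in tumor and 0.376 to 12 CPM in spleen, and its call was lost in 7 of 12 fits with 1 library left out (log2 fold change -2.22 without Spleen Flox 3 and -3.13 with it). Cd72, an inhibitory coreceptor, had 2.37 to 6.62 CPM in tumor and 2.26 to 8.52 CPM in spleen and did not pass (log2 fold change -0.15 ± 0.37, edgeR adjusted p = 0.80). Vpreb3, a gene of early B cells, had 1 tumor count and 22 spleen counts.

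Cd22, an inhibitory receptor that binds sialic acid, was high in a single tumor library. It had 0, 0 and 0 CPM in TIL Flox, 0, 0.646, 30.5 and 0 CPM in TIL WT, 5.21, 6.84 and 3.52 CPM in Spleen Flox and 9.22, 24.2, 30.1 and 73.7 CPM in Spleen WT libraries. TIL WT 3 thus reached the level of Spleen WT 3, while 5 of the 7 tumor libraries had no count. Its fall in tumor (log2 fold change -5.33 ± 1.64, edgeR adjusted p = 0.0363) was lost in 9 of 14 fits with 1 library left out, at adjusted p up to 0.0740 in edgeR, while without TIL WT 3 it was -7.81 (edgeR adjusted p = 9.49e-04).

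The 300 bases around an annotated Cd22 start site (250 before it to 50 after it) are shown because Cd22 both separated the spleen genotypes and stood alone in TIL WT 3 with Ebf1. The capitals mark CCCNNGGG, the core of the motif known for the factor EBF1, with T before it and A after it. The window is chr7:30878979-30879278, minus strand, from RefSeq on GRCm38.p6. It lies inside the RefSeq span of the gene (30865404 to 30880342), so its start site is not the outermost one. Which start these cells use was not tested.
Cd22: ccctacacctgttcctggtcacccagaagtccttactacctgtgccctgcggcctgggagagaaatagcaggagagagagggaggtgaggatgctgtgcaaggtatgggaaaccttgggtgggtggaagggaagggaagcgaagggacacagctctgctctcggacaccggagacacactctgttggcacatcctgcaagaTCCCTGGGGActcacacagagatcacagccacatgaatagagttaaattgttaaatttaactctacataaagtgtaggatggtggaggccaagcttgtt
Among 27 of the 36 genes with a window in the RefSeq table, only Cd22 had this longer form, which 1.06% of 27025 genes held. The core alone, searched on both strands, was in 3 of the 27 (Cd22, Bank1 and Spib), against 15.4% of all genes. A match describes letters in this window and shows no binding.

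Signalling genes split between those that fell and those carried by tumor libraries too. Lyn, a kinase that starts and also restrains B cell receptor signalling and is shared with myeloid cells, was the 1 gene that rose in tumor. It had 201, 70.3 and 266 CPM in TIL Flox, 897, 36.8, 250 and 118 CPM in TIL WT, 47.4, 7.59 and 34.3 CPM in Spleen Flox and 24.9, 181, 36.2 and 35.9 CPM in Spleen WT libraries. All tumor libraries but TIL WT 2 were above all spleen libraries but Spleen WT 2. The increase was 2.41 ± 0.76 on the log2 scale (SE, edgeR adjusted p = 0.0344), and the call was lost in 9 of 14 fits with 1 library left out, at adjusted p up to 0.0812 in edgeR. Without TIL WT 1 the increase was 1.78. Per kilobase of exon, averaged over the 14 libraries, Lyn stood at 38.7 CPM, second to Cd74 among the genes with a length.

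Btk, a kinase of the B cell receptor pathway, had 1.98, 0 and 0 CPM in TIL Flox, 0.195, 0, 0 and 0.368 CPM in TIL WT, 4.71, 0.995 and 0.586 CPM in Spleen Flox and 9.32, 145, 32.9 and 5.45 CPM in Spleen WT libraries. It fell by 4.97 ± 1.23 in tumor (log2, SE, edgeR adjusted p = 0.0114). With 1 library left out the value lay between -7.77 (without TIL Flox 1) and -4.19 (without Spleen WT 2), and also moved by over 1.5 times without Spleen Flox 1 (-4.29) and without TIL WT 4 (-5.58). Syk, the kinase that docks on the CD79 chains, had 0.836, 1.28 and 4.05 CPM in TIL Flox, 0, 0.646, 0.704 and 0.613 CPM in TIL WT, 2.41, 1.12 and 7.45 CPM in Spleen Flox and 13.3, 18.3, 10.2 and 11.1 CPM in Spleen WT libraries. Its tumor libraries overlapped the Spleen Flox but not the Spleen WT libraries, and it fell by 2.75 ± 0.60 (log2, SE, edgeR adjusted p = 0.00589). Bank1, a scaffold of this pathway, had 1 tumor count against 600 spleen counts, Blk 2 against 159 and Fcrla, an intracellular Fc receptor relative, 1 against 137, and all 3 fell. Spleen WT 2 held 44% of the spleen counts of Bank1, 68.5% of those of Blk and 55.5% of those of Fcrla. Blnk, the adaptor, fell too (log2 fold change -3.16 ± 1.03, edgeR adjusted p = 0.0398), a call lost in 9 of 14 fits with 1 library left out, at -1.78 without Spleen Flox 3.

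Plcg2 and Ralgps2 did not pass. Ralgps2, an exchange factor for the GTPase Ral, had 11.2, 1.4 and 3.04 CPM in TIL Flox, 266, 2.15, 1.83 and 0.981 CPM in TIL WT, 38.7, 70.4 and 65 CPM in Spleen Flox and 123, 109, 119 and 36.3 CPM in Spleen WT libraries. A single tumor library, TIL WT 1, exceeded all spleen libraries, and the other 6 lay below them all. Without TIL WT 1, Ralgps2 was called lower in tumor, at a log2 fold change of -4.66 (edgeR adjusted p = 3.59e-04), against -1.99 with it (edgeR adjusted p = 0.205). Plcg2 had 4.7, 0.893 and 37.6 CPM in TIL Flox, 3.71, 0.861, 1.27 and 1.96 CPM in TIL WT, 5.21, 3.48 and 0.67 CPM in Spleen Flox and 9.11, 15, 1.97 and 3.01 CPM in Spleen WT libraries. Its tissues overlapped throughout, with the top value in TIL Flox 3.

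Transcription regulators of the B lineage made up the largest part of the spleen sum. Ebf1 had 1.25, 0.128 and 0.563 CPM in TIL Flox, 1.37, 0.538, 67.6 and 1.84 CPM in TIL WT, 168, 157 and 173 CPM in Spleen Flox and 570, 919, 468 and 162 CPM in Spleen WT libraries. The tissues did not overlap even with TIL WT 3, which held most of the tumor reads. Ebf1 fell by 6.42 ± 1.18 (log2, SE, edgeR adjusted p = 0.00216), and the value was -8.34 without TIL WT 3. PAX5, which acts downstream of EBF1, was scarcely seen as RNA, with 0 tumor and 29 spleen counts for Pax5.

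Aff3, a nuclear protein gene expressed in lymphoid cells, had 0.627, 0.51 and 0.338 CPM in TIL Flox, 0.391, 0.323, 0 and 0.368 CPM in TIL WT, 85.5, 109 and 100.1 CPM in Spleen Flox and 34.5, 23.9, 87.7 and 235 CPM in Spleen WT libraries. It had the smallest p of the 33 genes, and fell by 8.0 ± 0.79 (log2, SE, edgeR adjusted p = 4.57e-05). Spleen WT 2, the top library for most of the genes, was the lowest spleen library for Aff3. Bcl11a, a zinc finger factor needed for B cell development, had 0 to 0.676 CPM in tumor against 1.32 to 54.4 CPM in spleen, and Spib, an Ets factor, 3 counts against 203, and both fell. Pou2af1, a coactivator of octamer-binding factors, had 0, 32.8 and 0.113 CPM in TIL Flox, 0, 0.323, 0 and 0.245 CPM in TIL WT, 3.11, 18.7 and 4.02 CPM in Spleen Flox and 2.87, 13.9, 26.8 and 54.9 CPM in Spleen WT libraries. With TIL Flox 2 in the range of spleen, its log2 fold change of -3.41 ± 1.27 did not pass (edgeR adjusted p = 0.0674). Without that library Pou2af1 was called lower in tumor, at -7.08 (edgeR adjusted p = 0.00239).

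Antibody genes were low in tumor and did not all follow the other genes in spleen. Igkc, the kappa light chain constant region, had 3.45, 1.28 and 5.18 CPM in TIL Flox, 5.47, 3.34, 3.24 and 2.33 CPM in TIL WT, 21.6, 17.9 and 29.4 CPM in Spleen Flox and 38.1, 106, 49.7 and 30.3 CPM in Spleen WT libraries. The tumor libraries were lowest, then Spleen Flox, then Spleen WT, with no overlap between these 3 blocks. Igkc fell by 3.38 ± 0.45 in tumor (log2, SE, edgeR adjusted p = 3.16e-04). Jchain, the chain that joins IgM and IgA units, had 0, 0 and 0 CPM in TIL Flox, 0, 0.108, 0 and 0.245 CPM in TIL WT, 24, 12.1 and 17.4 CPM in Spleen Flox and 13.4, 5.93, 24.3 and 22.6 CPM in Spleen WT libraries. Its lowest spleen value was in Spleen WT 2, and it fell by 8.76 ± 0.77 in tumor (log2, SE, edgeR adjusted p = 4.89e-05). From pooled counts, 3 in tumor against 1117 in spleen, the ratio was 0.00326 (exact 95% interval 0.000672 to 0.00956). Mzb1, a chaperone for antibody assembly, had 3 tumor and 39 spleen counts.

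Class II genes were detected in both tissues. Cd74, the invariant chain that guides class II molecules, had 106, 88.7 and 112 CPM in TIL Flox, 80.9, 123, 128 and 67.3 CPM in TIL WT, 36, 34.8 and 46.2 CPM in Spleen Flox and 43.2, 225, 60 and 34 CPM in Spleen WT libraries. All tumor libraries lay above all spleen libraries but Spleen WT 2, which was the highest of the 14. H2-Aa, an alpha chain, had 14.4, 6.25 and 17.8 CPM in TIL Flox, 7.62, 13.3, 9.29 and 1.23 CPM in TIL WT, 8.02, 40.7 and 9.21 CPM in Spleen Flox and 12.9, 81.5, 15.6 and 5.83 CPM in Spleen WT libraries, with the tissues overlapping. The log2 fold changes over the 14 libraries were 0.77 ± 0.44 for Cd74 and -1.23 ± 0.68 for H2-Aa, and neither passed (edgeR adjusted p = 0.22 and 0.207).

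Leaving out Spleen WT 2 changed the class II result. With all libraries, 3 class II genes were higher and 3 lower in tumor (median log2 fold change 0.19) and none passed in edgeR. None passed in DESeq2, which gave Ciita no adjusted p, or at an unadjusted p under 0.05. Of all genes, 31.2% passed in DESeq2 and 37.3% at an unadjusted p under 0.05, both directions together. Without that library, 5 were higher and 1 lower (median 1.03), and Cd74 (1.25 ± 0.32, edgeR adjusted p = 0.0161) and the beta chain gene H2-Eb1 (1.26 ± 0.34, edgeR adjusted p = 0.0193) rose. The beta chain gene H2-Ab1 had 3.56 to 45.9 CPM in tumor and 4.31 to 47.5 CPM in spleen libraries, H2-Eb1 6.87 to 21.2 and 4.35 to 47.1 CPM, and H2-DMa, which helps load peptides, 1.72 to 4.08 and 0.376 to 5.85 CPM. Ciita, the master regulator, had 0 to 37 CPM in tumor and 0.94 to 39.6 CPM in spleen libraries, with 1 library at the top in each tissue, TIL WT 2 and Spleen WT 2, and its log2 fold change was -2.38 without TIL WT 2 and 0.82 without Spleen WT 2 (edgeR adjusted p = 0.0952 and 0.639). The summed class II level averaged 145 ± 27.8 CPM in TIL Flox, 154 ± 65.5 CPM in TIL WT, 73.8 ± 17.7 CPM in Spleen Flox and 168 ± 187 CPM in Spleen WT libraries (SD, n = 3, 4, 3 and 4), or 75.1 ± 22 CPM in Spleen WT without replicate 2.

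Class II promoters are known to carry a Y box, CCAAT, bound by the factor NF-Y, and the promoters of H2-Aa and H2-Eb1 are shown for that element (CCAAT or its complement in capitals). Each is 300 bases, from 250 before the start site to 50 after it, RefSeq on GRCm38.p6, for H2-Aa chr17:34287774-34288073 on the minus strand and for H2-Eb1 chr17:34305617-34305916 on the plus strand.
H2-Aa: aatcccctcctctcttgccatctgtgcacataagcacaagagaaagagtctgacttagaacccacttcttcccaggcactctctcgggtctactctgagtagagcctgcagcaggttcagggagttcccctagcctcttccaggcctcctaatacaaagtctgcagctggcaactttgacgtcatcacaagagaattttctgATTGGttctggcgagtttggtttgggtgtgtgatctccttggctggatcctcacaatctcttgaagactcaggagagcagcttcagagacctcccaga
H2-Eb1: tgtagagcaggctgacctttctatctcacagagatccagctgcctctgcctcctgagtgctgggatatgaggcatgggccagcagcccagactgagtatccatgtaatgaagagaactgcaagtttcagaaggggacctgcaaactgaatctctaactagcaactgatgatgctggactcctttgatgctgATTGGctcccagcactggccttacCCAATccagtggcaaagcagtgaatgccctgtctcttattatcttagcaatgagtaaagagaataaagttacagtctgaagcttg
The match lay 48 bases before the start in H2-Aa, and the matches lay 59 and 35 bases before it in H2-Eb1. All 3 class II genes with a window held CCAAT, as did 10 of the 27 genes with a window and 41.1% of all genes, so the match by itself is common.

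**Figure D3:**
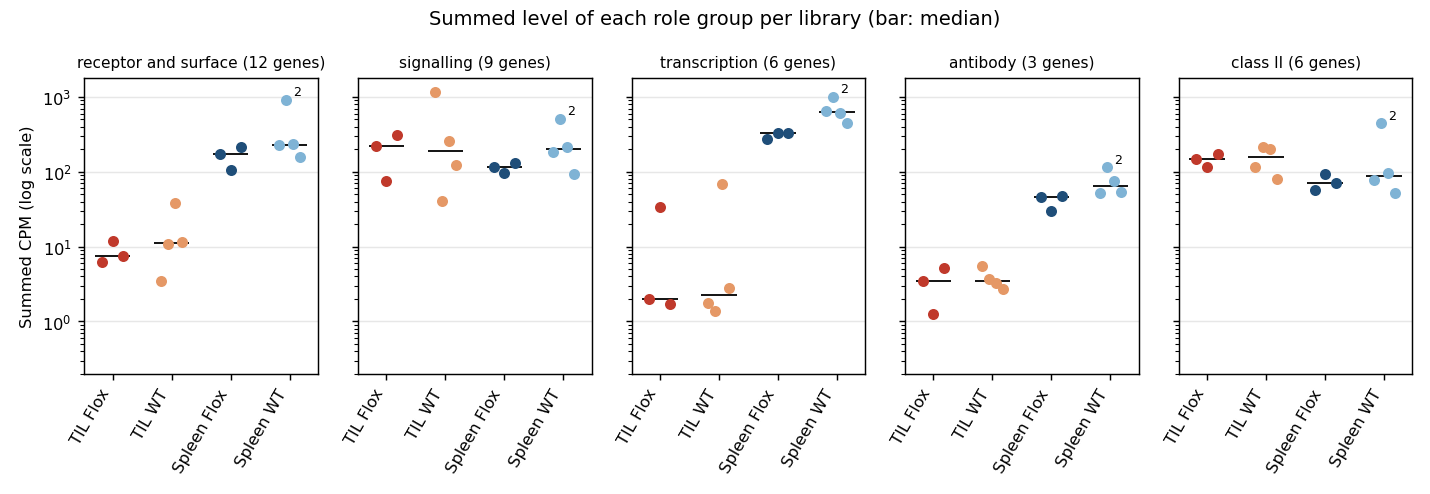
Summed CPM of each role in each library (log axis), with TIL Flox, TIL WT, Spleen Flox and Spleen WT from left to right, a bar at the group median and replicate 2 of Spleen WT marked. Receptor, transcription and antibody sums do not overlap between tissues (at most 38.9 against at least 106 CPM, 67.8 against 273 CPM and 5.47 against 30 CPM), while signalling and class II sums do.

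Markers of other cells also differed between tissues, and their part in these results was not tested. Of all 12008 genes tested between tissues, 13.0% rose and 11.2% fell in tumor (edgeR adjusted p under 0.05). Of 21 further B cell genes, 10 fell and 2 rose in tumor (median log2 fold change -1.76), with a summed level of 163 to 758 CPM in tumor and 493 to 1125 CPM in spleen libraries. Their most abundant genes were Ighm, the IgM heavy chain, H2-Ob, a class II modulator chain, and Pik3ap1, an adaptor for PI3-kinase. Ighm (median 51 CPM in tumor, 244 CPM in spleen) and H2-Ob (7.88 and 263 CPM) had lower medians in tumor. The tissues overlapped for Ighm, at 43.5 to 302 CPM in tumor (highest in TIL WT 4) and 193 to 405 CPM in spleen libraries. Pik3ap1 went the other way (72.2 and 0.94 CPM) and reached 382 CPM in TIL Flox 3. Of 13 antibody-secreting cell genes, 5 were tested, 2 rose and 1 fell. The sum was 120 to 665 CPM in tumor and 49.3 to 246 CPM in spleen libraries. Prdm1, Txndc5 and Irf4 gave most of the tumor sum. The other genes of that list except Xbp1 had at most 1.46 CPM in any tumor library, and Tnfrsf17 and Ighg1 had no counts in any library. Of 13 dendritic cell genes, 6 were tested and 2 rose, with sums of 21.7 to 81.8 CPM in tumor and 5.92 to 58.2 CPM in spleen libraries. Of 15 macrophage and monocyte genes, 13 were tested, 6 rose and 1 fell, with 10 higher and 3 lower in tumor whatever their p. Their sums were 38 to 258 CPM in tumor and 171 to 412 CPM in spleen libraries. Apoe, the most abundant by mean CPM, was lower in tumor, at a median of 22.2 CPM against 188 CPM in spleen libraries. Of 8 other class II pathway genes, 2 fell. Of 12 genes of other spleen or blood cells, 9 were tested and 5 fell, led by the alpha globin genes Hba-a1 and Hba-a2, whose reads may be shared between near-identical copies. The Treg and T cell list rose for 6 of 12 genes, with Ikzf2, Cd28 and Il2ra the most abundant.

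Within spleen, the genes were carried together by Spleen WT 2. It was the highest of the 7 spleen libraries for 27 of the 36 genes, against 20.0% of all genes, and of the 14 libraries for 24. Its level was over 2 times the median of the other 6 spleen libraries for 30 of the 36, against 15.4% of all genes, and the median ratio was 5.46 for the 36 genes and 1.05 for all genes. All 6 class II genes and 24 of the other 30 exceeded 2 times. Btk (145 CPM, 28.6 times the median of the other 6), Fcer2a (44.8 CPM, 23.4 times), Ciita (39.6 CPM, 19 times) and Tnfrsf13c (12 CPM, 18.2 times) stood out most among genes with over 100 spleen counts. The 9 genes with their spleen maximum elsewhere were Cd180, Blnk and Bcl11a (Spleen Flox 3), Cd22, Pou2af1 and Aff3 (Spleen WT 4), Cd72 (Spleen Flox 1), Ralgps2 (Spleen WT 1) and Jchain (Spleen WT 3).

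**Figure D4:**
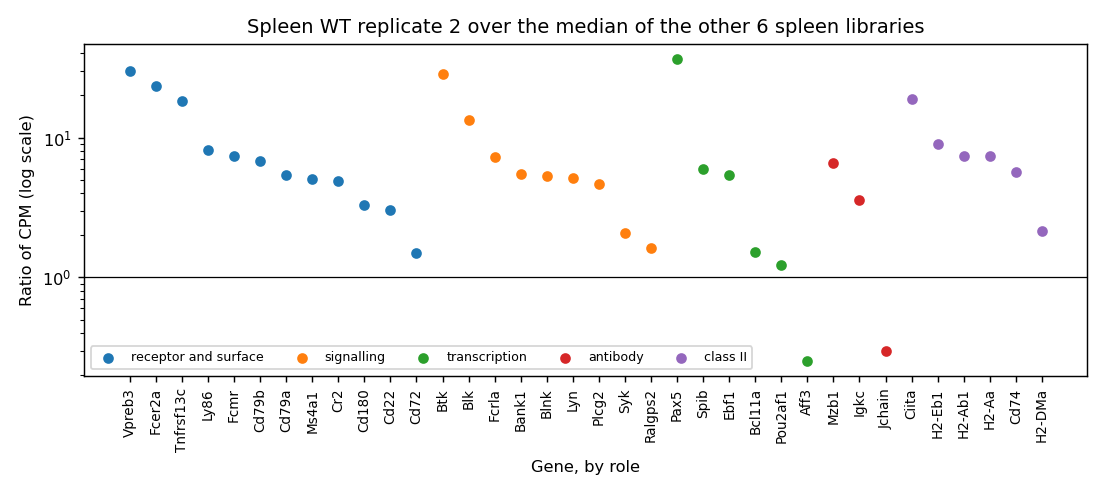
Ratio of the CPM in Spleen WT 2 to the median CPM of the other 6 spleen libraries (log axis) for each of the 36 genes, coloured by role. 34 genes lie above 1 and Aff3 and Jchain below it, and the median ratio is 5.46; the ratios of Pax5, Vpreb3 and Mzb1 rest on 29, 22 and 39 spleen counts in all.

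Several other lists moved with that library by median ratio, but not all by summed level. The median ratio was 4.31 for the 21 further B cell genes, 4.33 for 10 genes of other spleen or blood cells, 3.20 for 14 macrophage and monocyte genes, 2.77 for 8 dendritic cell genes, 1.68 for 8 other class II pathway genes and 1.20 for 8 antibody-secreting cell genes. By summed CPM the ratio was 3.755 for the 36 genes, 4.14 for other spleen or blood cells and 2.20 for dendritic cells. It was 1.775 for macrophage and monocyte genes, 1.52 for other class II pathway genes and 1.445 for further B cell genes. The antibody-secreting sum was lower in Spleen WT 2, at 0.377. Spleen WT 4 had the highest further B cell sum (1125 against 1049 CPM), and Spleen Flox 1 the highest dendritic cell sum (58.2 against 18.6 CPM). Adgre1, a macrophage surface gene, had 194 CPM in Spleen WT 2 against at most 4.61 CPM in the other spleen libraries. It also had 143 CPM in TIL WT 2, where the other tumor libraries had at most 3.97 CPM. In Spleen WT 2, Hba-a2 had 325 CPM against 30.6 to 134 CPM in the other spleen libraries. The 12 Treg and T cell genes had a median ratio of 1.11, and their sum was lower in Spleen WT 2 than in any other library (3701 CPM, against 4753 to 6779 CPM in the other 6 spleen libraries). Foxp3 itself was highest there, at 268 CPM. That library held 15312 detected genes, the most of the 14, and its reads carried Xist and Y-linked genes together. Whether these facts bear on the B cell and class II levels was not tested.

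In spleen, many of the genes were held mainly by a single library. There, 14 of 36 genes (38.9%) had over 50% of the CPM of the 7 libraries in 1 library, against 14.6% of all genes, and 13 of the 14 had it in Spleen WT 2. In tumor, 7 of 23 genes with 20 counts or more (30.4%) did, a share near the 23.4% of all genes, and no library held more than 2 of them. The tumor values that follow thus describe single genes, not the set. TIL WT 3 held 97.9% of Cd22 and 92.2% of Ebf1, TIL Flox 2 held 98% of Pou2af1, and TIL WT 1 held 92.8% of Ralgps2. TIL WT 2 held 86% of Ciita (37 CPM), TIL Flox 3 73.7% of Plcg2 and TIL Flox 1 77.9% of Btk, the last from 23 tumor counts. Of the 34 genes detected in tumor, each tumor library was the highest of the 7 for 3 to 6, with 6 each in TIL Flox 2 and TIL WT 3. In TIL Flox 2 these were Pou2af1, Ly86, Cd180, Blnk, Blk and Vpreb3, and in TIL WT 3 they were Ebf1, Cd22, Spib, Cd74, H2-Ab1 and H2-DMa.

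For the genotype contrast in spleen, most of the genes were lower in Flox than in WT, but none passed the test. Of 32 genes tested, 8 were higher and 24 lower in Flox, with a median log2 fold change, Flox over WT, of -1.22, against -0.06 over all genes. In edgeR 0 of the 32 were called, as were 0% of all 10935 genes. At an unadjusted p under 0.05, 4 of the 32 were lower and 0 higher, against 2.61% of all genes lower and 4.25% higher. DESeq2 called 2 of the 32, Cd22 (adjusted p = 0.0248) and Btk (DESeq2 adjusted p = 0.0206), both lower, against 0.448% of all genes. It gave no adjusted p to Cd79b, Fcmr, Fcer2a, Tnfrsf13c, Ciita, H2-Ab1 and H2-Eb1, which could thus not be called. Summed over the 36 genes the level was 703 ± 76.5 CPM in Spleen Flox (SD, n = 3) and 1559 ± 984 CPM in Spleen WT libraries (SD, n = 4), or 1076 ± 230 CPM in WT without replicate 2. Some other lists moved the same way without a call in either tool. Of 20 further B cell genes, 16 were lower in Flox (median log2 fold change -0.70, 2 at an unadjusted p under 0.05). Of 9 macrophage and monocyte genes, 8 were lower (median -1.56, 3 at an unadjusted p under 0.05). By contrast, 8 of 12 Treg and T cell genes (median 0.05) and 2 of 3 dendritic cell genes (median 0.69) were higher in Flox. DESeq2 called the dendritic cell gene Itgax higher (DESeq2 adjusted p = 0.0150). The part of these lists was not tested.

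Every Spleen Flox library lay below every Spleen WT library for 4 of the 32 genes, Cd22, Btk, Syk and Igkc, against 3.13% of all genes. By p, Cd22 came first (3.52 to 6.84 CPM in Flox, 9.22 to 73.7 CPM in WT), with a log2 fold change of -2.73 ± 0.79 (edgeR adjusted p = 0.674). Ebf1 followed with 157 to 173 CPM in Flox and 162 to 919 CPM in WT (-1.67 ± 0.52, edgeR adjusted p = 0.674). Btk had 0.586 to 4.71 CPM in Flox and 5.45 to 145 CPM in WT (-4.50 ± 1.47, edgeR adjusted p = 0.674). The 3 Flox libraries were close together for Ebf1 while the 4 WT libraries spread over a wide range, and Spleen WT 4 lay within the Flox range.

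Without Spleen WT 2, 30 genes were tested, 11 higher and 19 lower in Flox, and the median moved to -0.25. The log2 fold change of Fcer2a, Flox over WT, was 0.88 without that library and -1.64 with it, and that of Ciita was -0.48 without it and -2.65 with it. Cd22 (-2.89), Btk (-2.92) and Ebf1 (-1.28) kept an unadjusted p under 0.05, and no gene of the 30 passed (edgeR). Class II genes went with that library, at a median of -1.46 with it and -0.25 without it.

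**Figure D5:**
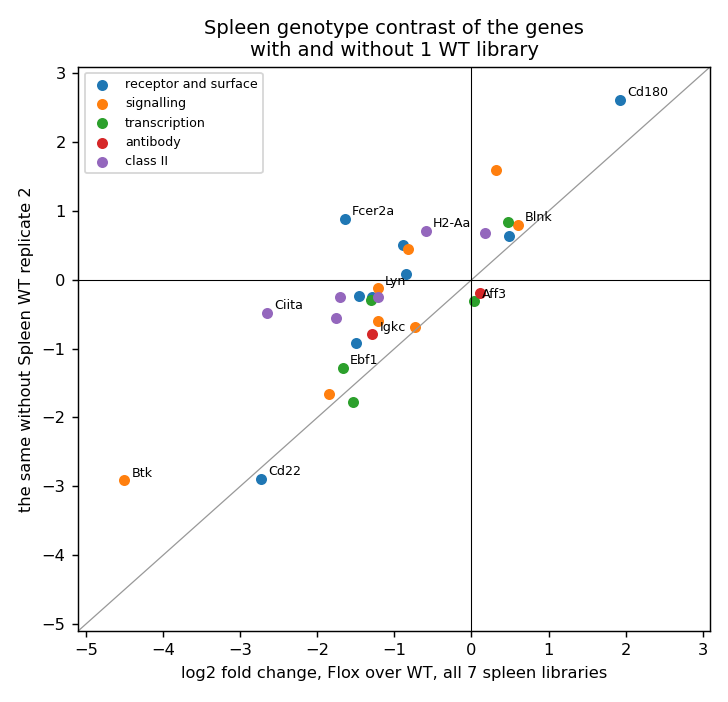
Log2 fold change, Flox over WT in spleen, with all 7 libraries (x axis) and without Spleen WT 2 (y axis), 1 point per gene tested in both fits, coloured by role, with a line of equality. Most points lie above the line and near 0 on the y axis (median -0.25, against -1.22 on the x axis), and Cd22 stays at -2.89.

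In tumor, 14 of the 36 genes could be tested between genotypes, 4 higher and 10 lower in Flox, with a median log2 fold change of -0.31 (all genes -0.06). In edgeR 0 of the 14 and 0% of all 10777 genes were called, with 1 of the 14 higher and 1 lower at an unadjusted p under 0.05, against 8.08% of all genes in either direction. DESeq2 called 0 of the 14, against 2.47% of all genes in either direction. It gave no adjusted p to Cd79b, Cd72, Ly86, Ralgps2, Ebf1, Igkc, Ciita and H2-DMa, which could thus not be called. The 3 smallest p belonged to genes held by 1 library each. Plcg2 (2.87 ± 1.12, edgeR adjusted p = 0.584) followed TIL Flox 3, and without it the log2 fold change was 0.56. Ebf1 (-4.82 ± 2.02, edgeR adjusted p = 0.584) followed TIL WT 3, and without that library, or without TIL WT 4, it did not pass the low-count filter. Ralgps2 (-3.68 ± 2.23, edgeR adjusted p = 0.63) followed TIL WT 1, and without it the value was 1.63. Summed over the 36 genes the level was 372 ± 130 CPM in TIL Flox (SD, n = 3) and 589 ± 495 CPM in TIL WT libraries (SD, n = 4), the groups overlapping.

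The difference between these genotype contrasts, tumor minus spleen, was tested for 33 genes, and 0 of them and 0% of all genes were called in edgeR. At an unadjusted p under 0.05, 5 were higher and 1 lower, against 5.20% of all genes higher and 5.59% lower. Among them, Blk (higher) had 2 tumor counts in all and Jchain (lower) had 3. DESeq2 called Syk higher and Cd22 lower, against 0.641% of all genes higher and 0.633% lower. Cd22 had no count in TIL Flox libraries, and TIL WT 3 held 217 of its 223 tumor counts. DESeq2 gave no adjusted p to Cd79b, Fcer2a, Tnfrsf13c, Ly86, Blk, Ralgps2, Fcrla, Spib and Ciita. The smallest p were those of Syk (3.83 ± 1.17, edgeR adjusted p = 0.425), Pou2af1 (7.52 ± 2.57, edgeR adjusted p = 0.425) and Btk (6.70 ± 2.33, edgeR adjusted p = 0.425). The value of Pou2af1 was 0.20 without TIL Flox 2, and that of Btk was 1.10 without TIL Flox 1. Both contrasts were also contrasts of Xist and Y-linked reads.

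Among 6969 genes with a mean of 10 CPM or more, the levels most like the summed B cell genes (without class II and Igkc, log2 scale, 14 libraries) were those of the mitochondrial genes ND2 (Pearson r = 0.864), ND6 (0.855) and ND1 (0.849), the T cell kinase gene Prkcq (0.863) and Gm14586 (0.857). These libraries share their tissue difference, so the likeness is a description. The sum includes Lyn, which gave 897 of its 1173 CPM in TIL WT 1. ND1 had 1311 CPM in that library, against 353 to 605 CPM in the other tumor libraries. ND2 had 161 to 348 CPM in tumor and 397 to 577 CPM in spleen libraries. Prkcq had 10.3 to 14.2 CPM in 6 tumor libraries, 166 CPM in TIL WT 1 and 127 to 429 CPM in spleen libraries, with the highest value in Spleen WT 2.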

How the data were processed

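FoxP3-YFP sorted Tregs yielded polyadenylated RNA, isolated on Qiagen RNeasy Plus micro columns and turned into ultra-low input libraries at GeneWiz, per the labels' protocols. The authors deposited raw read counts per gene, not normalized, for 27179 genes and 14 libraries. The build is mm10, per the submitters' processing notes, while aligner, counter, annotation and strand setting were not given in the sources used here, so overlapping, antisense or near-identical genes may share reads. RefSeq symbols were found for 25275 IDs, and exon lengths came from GENCODE M21.

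Counts were tested with edgeR 4.0.16 (R 4.3.3), using quasi-likelihood fits, TMM factors, the filterByExpr low-count filter and Benjamini-Hochberg adjustment over all genes with a threshold of 0.05. Genotype contrasts used the 7 libraries of a tissue, and the tissue contrast and the difference of contrasts used all 14 libraries as 4 groups. Depth was 4859099 to 10333892 counts, so a floor of 3 counts was 0.234 to 0.586 CPM on the TMM scale in a library. The scripts were tested on simulated data. DESeq2 1.42.0, other scalings and filters, a replicate block and leaving out each library were alternatives. Genes to which DESeq2 gave no adjusted p count as not called, also in its shares over all genes. Over the genes passing the filter, libraries of the same replicate number did not deviate together (correlations -0.031 to 0.051). Such correlations cannot exclude a shared mouse. Values in every library were given for the top 2 genes of each role by mean CPM and the 3 smallest p of each contrast. Up to 3 genes were named per other list, and more of the antibody-secreting list. The 5 genes most alike by correlation were also named. The 36 genes and the lists were chosen with earlier results of these data known. All columns were used, and sequences came from the RefSeq promoter table.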

Additional observations from a re-analysis of the deposited data

Results flagged for a closer look

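Of 40 values examined in groups of 4 libraries (role sums and the genes given per library), 11 had 1 library whose gap to the rest was above Dixon's critical value at the 95% level. The 5% rate of that test holds for independent, normally distributed values. These were CPM without a log, the role sums contain the single genes, and those genes were picked by level or p. The share flagged over all genes was not computed, so the 11 are a description.

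In Spleen WT, replicate 2 stood apart in the receptor and surface sum (924 CPM, others 157 to 232 CPM), the class II sum (446 CPM, others 51.9 to 95.7 CPM), Lyn (181 CPM, others 24.9 to 36.2 CPM), Cd74 (225 CPM, others 34 to 60 CPM) and H2-Aa (81.5 CPM, others 5.83 to 15.6 CPM). Replicate 4 stood apart in Ralgps2, at 36.3 CPM against 109 to 123 CPM in the other 3 libraries.

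In TIL WT, replicate 3 stood apart in the transcription sum (67.8 CPM, others 1.4 to 2.82 CPM), which Ebf1 made up almost alone (67.6 CPM, others 0.538 to 1.84 CPM), and in Cd22 (30.5 CPM, others 0 to 0.646 CPM). Replicate 1 stood apart in Ralgps2 (266 CPM, others 0.981 to 2.15 CPM) and, at the low end, in Syk (0 CPM, others 0.613 to 0.704 CPM), a gap near the worth of a few counts.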

How the results depend on the processing

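The contrasts between genotypes depended on the software. In spleen, edgeR called 0 genes, DESeq2 124 (75 higher, 49 lower in Flox), of which 2 were among the 36, edgeR on genes with at least 5 CPM in 3 libraries 1, and a fit of all 14 libraries 4. In tumor DESeq2 called 266 genes (147 higher, 119 lower), and for the difference of contrasts 153 (77 higher, 76 lower), of which 2 were among the 36. With 1 library left out, 0 to 1 genes were called in spleen and 0 to 1 for the difference. The spleen median of the B cell and class II genes ranged over -1.48 to -0.25, and the tumor log2 fold change of Ralgps2 over -4.89 to 1.63, reversed without TIL WT replicate 1. The cause of the differences between tools was not tested.

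The labels do not say whether replicate numbers pair the libraries, and the correlations of same-numbered libraries cannot decide it. WT replicate 2 was the highest library of each tissue for Adgre1 (194 CPM in spleen, 143 CPM in tumor). The same held for Ciita (39.6 CPM in spleen, 37 CPM in tumor), and a shared origin was not tested. With the replicate block, tumor against spleen called 1823 genes (979 higher, 844 lower) in place of 2897, and the median over the 33 genes was -4.22, with 21 called lower and 0 higher. The other alternatives for tumor against spleen kept the median's direction. Single genes with fewer than 3 counts in a library could not be told from 0 at this depth.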
